A study of Mus musculus with 10 samples.

Results

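The comparison described here set 2 of the 10 libraries of a mouse blood series, those taken at 12 h, against 4 libraries taken before and after them. The 12 h libraries were SD 12 h (sleep deprivation, SD, for 12 h) and SASD 12 h (a sleep restriction method reported earlier, labelled SASD, for 12 h). The other 4 were SD 6 h, SD 24 h, SASD 6 h and SASD 24 h. SD 48 h, SASD 48 h, SASD 120 h and the control at 0 h (Con) took no part in choosing genes and are given as values only. All mice were C57/BL6J, with no transgene or deletion named, and their age was not given in the sources used here. Each library was made from the pooled blood of 3 mice, drawn behind the eye under pentobarbital, and each group had a single library. The procedures behind SD and SASD and the clock time of each blood draw were not given in the sources used here. The labels call the cell type leukocyte. Transcripts of neutrophils, monocytes, B cells, T cells and platelets were present in all 6 libraries of the comparison, and so were those of red cells, which held 4.20% to 6.96% of all counts as haemoglobin. Total counts ran from 7825120 to 11141786 in these 6 libraries.

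Leukocyte RNA in blood follows the time of day along several routes. The circadian clock is a loop in which the activators Clock and Arntl (BMAL1) bind E-box sequences and switch on their own repressors, the Period and Cryptochrome genes, together with output genes such as Dbp. Corticosterone, the main glucocorticoid of mice, is released by the adrenal gland in a daily rhythm and under stress, and the glucocorticoid receptor then induces genes such as Tsc22d3, Fkbp5, Ddit4 and Per1 in leukocytes. Both the clock and glucocorticoids also govern how many lymphocytes and monocytes circulate.

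The question was which genes stood above or below both neighbouring times at 12 h under both methods, with one sign. A gene is said to peak where its 12 h level lay above the 6 h and the 24 h level of the same method, in SD and in SASD, and to dip where it lay below all of them. Levels are CPM, read counts divided by the library total after scaling by TMM, a normalization for library composition. They are not divided by gene length, so they compare libraries and not genes. Of 12841 genes tested, 1546 peaked (12%) and 1175 dipped (9.15%). The 12 h effect had one sign in both methods for 3519 genes that were higher (27.4%) and 3013 that were lower (23.5%), 50.9% of genes together. Opposite patterns were about as common as shared ones. At 12 h 1223 genes (9.52%) lay above both neighbouring times in SD and below both in SASD, and 1311 (10.2%) the reverse. The number of peaking and dipping genes alone therefore does not show a shared 12 h pattern. A change of 2-fold or more in the fit, together with a peak or dip, was seen in 12 genes that were higher (0.0935%) and 74 that were lower (0.576%).

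No gene passed edgeR's quasi-likelihood test with Benjamini-Hochberg adjustment at 0.05 (0%). At an unadjusted p under 0.05 there were 462 genes (3.6%), of which 170 were higher (1.32%) and 292 lower (2.27%) at 12 h. The same number of tests would give 642.1 such genes by chance. The limma-voom test called 0 genes, and DESeq2 called 14 of the 12094 genes to which it gave an adjusted p (0.116%), all of them peaking or dipping. The 6 that were higher at 12 h by DESeq2 (0.0496%) were Ddit4, Tsc22d3, Pik3ip1, Sesn1, Fkbp5 and Ston1, and the 8 that were lower (0.0661%) include Isg15, Ank1, Apol11b, Cd209a, Car2, Epb42 and Fam213a. With 1 pooled library per group, the p-values measure the spread between these libraries and times, part of which may be technical. The count of 0 depended on the count minimum and on the SD 6 h library. With no count minimum edgeR called 92 genes, 16 higher and 76 lower. Without SD 6 h edgeR called 75 genes, 7 higher and 68 lower. Of these, 37 peaked or dipped in both methods and 14 are among the 30 genes chosen next. Without SD 24 h it called Ddit4 alone, and without any of the other 4 libraries 0 genes. The genes described are therefore those of smallest p that peaked or dipped in both methods, 15 in each direction, and none of them was called by edgeR. Their edgeR adjusted p ran from 0.122 to 0.999.

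Among the 15 peaking genes, 6 belong to a list of 29 genes of the glucocorticoid receptor and its targets (Ddit4, Pik3ip1, Tsc22d3, Sesn1, Fkbp5 and Cxcr4), and Per1 belongs to the clock list. The glucocorticoid list, which was drawn up with earlier results of these data known, holds 24 of the 12841 genes tested. Ddit4 (REDD1, an inhibitor of the growth kinase mTORC1; chr10:59949669-59951834, minus strand, on mm10 as for all genes here) stood at 156 CPM in SD 12 h and 145 CPM in SASD 12 h, against 50.98 CPM in SD 6 h, 70.4 CPM in SD 24 h, 55.3 CPM in SASD 6 h and 41.7 CPM in SASD 24 h. Both 12 h libraries were more than 2-fold above each of the other 4. Its log2 ratio of 12 h over the other times was 1.47 ± 0.16 (SE, 6 libraries), with an edgeR adjusted p of 0.122 and a DESeq2 adjusted p of 1.20e-09. Under the 15 alternative edgeR settings this log2 ratio lay between 1.34 and 1.58, and the adjusted p between 2.48e-12 and 1.

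Tsc22d3 (GILZ, a mediator of the anti-inflammatory action of glucocorticoids; chrX:140539528-140600659, minus strand) had 973 CPM in SD 12 h and 888 CPM in SASD 12 h, against 651 CPM in SD 6 h, 645 CPM in SD 24 h, 480.4 CPM in SASD 6 h and 491 CPM in SASD 24 h. Both 12 h libraries lay above the other 4, as they did for 7.17% of all genes tested, and the log2 ratio was 0.73 ± 0.13 (SE, 6 libraries). Fkbp5, a co-chaperone that lowers the hormone affinity of the glucocorticoid receptor (chr17:28399094-28517527, minus strand), stood at 139 CPM in SD 12 h and 114 CPM in SASD 12 h, against 69.4 CPM in SD 6 h, 72.1 CPM in SD 24 h, 86.3 CPM in SASD 6 h and 54.9 CPM in SASD 24 h. Its lowest 12 h library was above the highest of the other 4, and the log2 ratio was 0.83 ± 0.17 (SE, 6 libraries). Per1, a clock repressor that glucocorticoids also induce (chr11:69095217-69109960, plus strand), had 106 CPM in SD 12 h and 73.99 CPM in SASD 12 h, against 58.7 CPM in SD 6 h, 52.3 CPM in SD 24 h, 57.99 CPM in SASD 6 h and 61.5 CPM in SASD 24 h. The SD 12 h library stood well above the rest and SASD 12 h nearer to SASD 24 h, so that the log2 ratio was 0.93 within SD and 0.31 within SASD, and 0.63 ± 0.15 (SE, 6 libraries) in the fit. Without SD 12 h it was 0.30.

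The promoters of Fkbp5 and Per1 are shown because both genes peaked and both hold a sequence of the kind bound by the clock activators. They are RefSeq windows of 250 bases before to 50 bases after a transcript start on GRCm38.p6, written on the gene's strand. The E-box letters CACGTG are in capitals (Fkbp5 at chr17:28486100-28486399, minus strand, and Per1, one of its 2 promoters, at chr11:69098699-69098998, plus strand). Both windows lie inside the gene spans given above, at starts that are not the outermost ones of those spans.
Fkbp5 promoter: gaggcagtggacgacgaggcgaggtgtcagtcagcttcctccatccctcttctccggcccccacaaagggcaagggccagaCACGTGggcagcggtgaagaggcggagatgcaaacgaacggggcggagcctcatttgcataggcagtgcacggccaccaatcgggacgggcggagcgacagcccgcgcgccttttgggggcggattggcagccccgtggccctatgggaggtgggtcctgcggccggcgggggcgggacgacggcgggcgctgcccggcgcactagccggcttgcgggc
Per1 promoter: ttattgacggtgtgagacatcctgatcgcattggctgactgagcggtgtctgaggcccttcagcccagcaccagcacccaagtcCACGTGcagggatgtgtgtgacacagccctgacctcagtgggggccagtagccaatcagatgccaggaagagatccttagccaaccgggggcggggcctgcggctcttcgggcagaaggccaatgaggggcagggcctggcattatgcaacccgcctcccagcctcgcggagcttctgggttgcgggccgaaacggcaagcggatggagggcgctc
The letters CACGTG, which read the same on both strands, were found in 7.15% of all 32851 RefSeq promoters, and neither match overlapped another motif searched. They were in promoters of 4 of the 14 named peaking genes with a RefSeq promoter (Bbc3, Dusp2, Fkbp5 and Per1), or 4 of 21 promoters (19.0%). Of the promoters of all peaking genes 10.2% held them, against 9.92% of the promoters of the genes tested. The spaced letters ACANNNTGT, a core of the glucocorticoid receptor's palindrome searched on both strands, were in 5.51% of the promoters of peaking genes and 4.38% of those of the genes tested. Among the named peaking genes with a promoter only Ptpn22 held them. In the glucocorticoid list they were in 4 of 32 promoters (12.5%), of 3 genes that include Sgk1 and Txnip. The letters TGTTTAC, searched as a site of FOXO transcription factors, were in 2 of the 21 promoters of named peaking genes (9.52%), those of Bbc3 and Sesn1. They were in 2.62% of the promoters of all peaking genes and 2.65% of those of the genes tested. A match is a description and not a site, and receptor sites far from a gene's start lie outside these windows.

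Pik3ip1, which dampens PI3K signalling in T cells (chr11:3330401-3342971, plus strand), stood at 194 CPM in SD 12 h and 201 CPM in SASD 12 h, against 120.4 CPM in SD 6 h, 92.8 CPM in SD 24 h, 126 CPM in SASD 6 h and 109 CPM in SASD 24 h. Sesn1, a sestrin that restrains mTORC1 (chr10:41809935-41908424, plus strand), had 198 CPM in SD 12 h and 239 CPM in SASD 12 h, against 149 CPM in SD 6 h, 124 CPM in SD 24 h, 131 CPM in SASD 6 h and 111 CPM in SASD 24 h. Neither gene, both chosen by p among peaking genes, overlapped between the groups. Both 12 h levels lay above the other 4 in 7.17% of all genes tested. The log2 ratios were 0.82 ± 0.14 and 0.76 ± 0.15 (SE, 6 libraries each). Bbc3 (PUMA), which promotes apoptosis, was at 46.6 and 51.5 CPM in the SD and SASD libraries at 12 h, against 19.97 to 31.9 CPM in the other 4 (log2 ratio 0.90 ± 0.18).

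**Figure D1:**
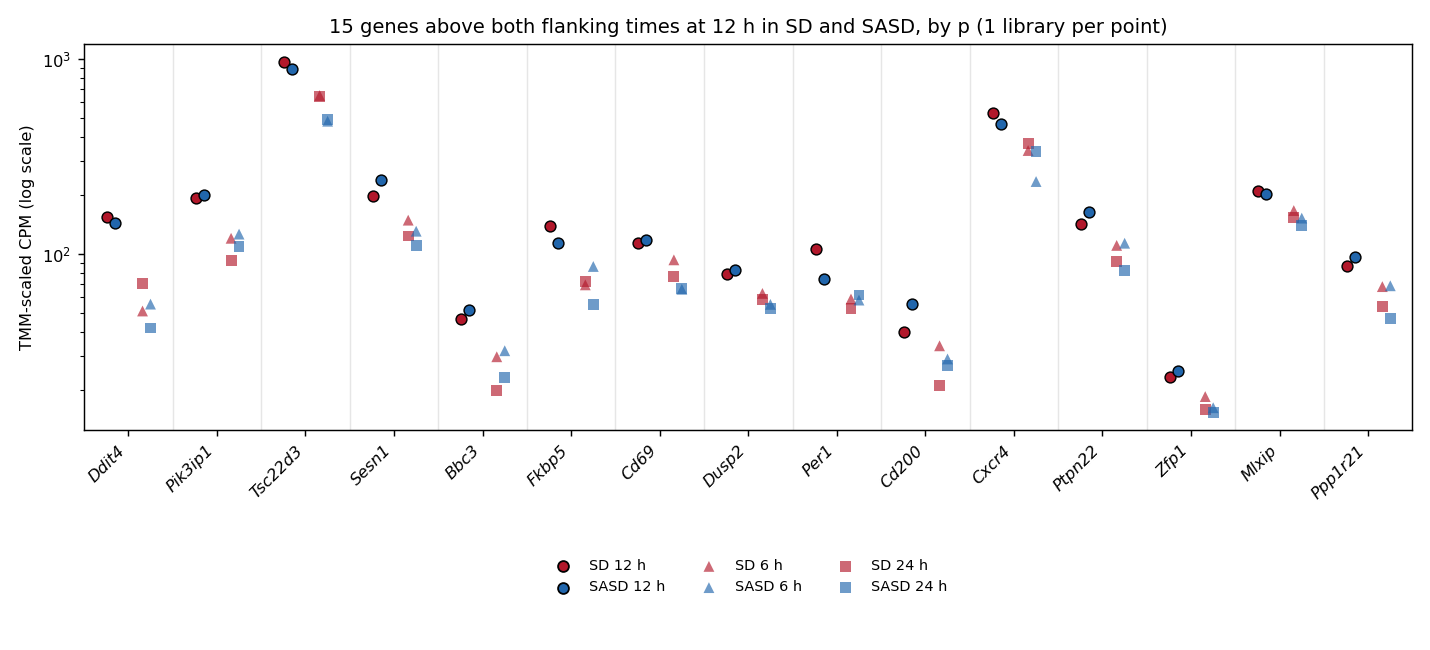
Levels of the 15 peaking genes of smallest p, in TMM-scaled CPM on a log axis, 1 point per library, with the 12 h libraries (outlined circles) left of the 6 h (triangles) and 24 h (squares) libraries and SD in red and SASD in blue. Each 12 h point lies above the 6 h and 24 h points of its own colour, and the gap is widest for Ddit4 (156 and 145 CPM at 12 h against 41.7 to 70.4 CPM).

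The other named peaking genes include surface proteins and phosphatases of lymphocytes. Cxcr4, the receptor that draws leukocytes to bone marrow, stood at 529 and 466 CPM in the SD and SASD libraries at 12 h, against 235 to 369 CPM in the other 4 (log2 ratio 0.64 ± 0.16). Cd69, an activation marker that holds lymphocytes in tissue, was at 113 and 118 CPM in the SD and SASD libraries at 12 h, against 65.9 to 93.3 CPM in the other 4 (log2 ratio 0.63 ± 0.13, or 0.40 without SASD 12 h). Cd200, a ligand that restrains myeloid cells, was at 39.99 and 55.5 CPM in the SD and SASD libraries at 12 h, against 21.1 to 33.8 CPM in the other 4 (log2 ratio 0.77 ± 0.19). The phosphatase genes were Ptpn22, which restrains T cell receptor signalling, with 142 and 164 CPM in the SD and SASD libraries at 12 h, against 81.9 to 114 CPM in the other 4, and Dusp2, which inactivates MAP kinases, with 79.1 and 82.5 CPM in the SD and SASD libraries at 12 h, against 52.7 to 62.7 CPM in the other 4. Their groups did not overlap, as in 7.17% of all genes tested with 12 h above, and the log2 ratios were 0.62 ± 0.16 and 0.50 ± 0.11. Mlxip (MondoA), a transcription factor that responds to glucose, was at 210.4 and 203 CPM in the SD and SASD libraries at 12 h, against 139.9 to 167 CPM in the other 4 (log2 ratio 0.43 ± 0.11). Zfp1, a zinc finger gene, and Ppp1r21 had log2 ratios of 0.55 ± 0.14 and 0.62 ± 0.17.

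Of the 29 genes on the glucocorticoid list, 24 were tested, 12 peaked and 1 dipped, against 12% and 9.15% of all genes tested. The other 5 did not pass the count minimum. In the fit 17 of the 24 were higher at 12 h and 7 were lower. With one sign in both methods, 13 were higher and 5 lower, beside 27.4% and 23.5% of all genes. The median log2 ratio of the 24 was 0.31, with 0.43 within SD and 0.16 within SASD, against 0.01 over all genes tested. At an unadjusted p under 0.05 there were 8 that were higher and 1 that was lower, beside 1.32% and 2.27% of all genes. By adjusted p, edgeR called 0 and DESeq2 called 5, beside 0% and 0.116% of all genes. The list shares 4 of its genes with another list. Of the 21 tested that stand in no other list, 11 peaked.

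Beyond those already described, Il7r, the receptor for the T cell survival factor interleukin 7, stood at 353 and 441 CPM in the SD and SASD libraries at 12 h, against 199.8 to 306 CPM in the other 4 (log2 ratio 0.66 ± 0.21). Txnip, which limits glucose uptake, was at 1006 and 905 CPM in the SD and SASD libraries at 12 h, against 677 to 799.6 CPM in the other 4 (log2 ratio 0.34 ± 0.14). Dusp1, a phosphatase of stress kinases, had 458 CPM in SD 12 h and 177 CPM in SASD 12 h, against 171 CPM in SD 6 h, 341 CPM in SD 24 h, 114 CPM in SASD 6 h and 167 CPM in SASD 24 h. It peaked within each method, but SASD 12 h lay under SD 24 h, so the groups overlapped (log2 ratio 0.60 ± 0.27). Sgk1, a kinase of salt transport, peaked within each method too and overlapped in the same way, with 78.1 and 51.5 CPM at 12 h against 40.6 to 69.9 CPM in the other 4. Klf9, a transcription factor that glucocorticoids induce, and Errfi1, a feedback inhibitor of the EGF receptor, peaked with log2 ratios of 0.26 ± 0.16 and 0.13 ± 0.20. Acsl1, an enzyme that activates fatty acids, was the member that dipped, with 106 and 102 CPM in the SD and SASD libraries at 12 h, against 121 to 214 CPM in the other 4 (log2 ratio -0.58 ± 0.20). Nr3c1, the glucocorticoid receptor itself, overlapped between the groups at 164 and 159.8 CPM at 12 h against 145 to 202 CPM in the other 4, with a log2 ratio of -0.085 ± 0.15 that was 0.041 without the 24 h libraries.

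Levels of T cell and red cell markers also stood apart from those of the neighbouring times at 12 h, and their part in these values was not tested. In bulk blood, fewer cells of a type and less RNA per cell cannot be told apart. On a scaling over all 10 libraries, the summed level of 20 T cell markers was 2824 CPM in SD 12 h and 3207 CPM in SASD 12 h, against 2420.4 to 2826 CPM in the other 4 libraries, and that of 24 mature neutrophil markers was 7496 and 2654 CPM, against 3489.6 to 9378 CPM. The T cell sum lay above both neighbouring times in each method, though SD 12 h was under SASD 6 h. The neutrophil sum lay between its neighbours in SD and below both in SASD.

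The clock lists hold 24 genes, of which 21 were tested. Of these, 3 peaked and 3 dipped, shares of 14.3% each beside 12% and 9.15% of all genes. The median log2 ratio was 0.02, against 0.01 over all genes, and Per1 alone had an unadjusted p under 0.05, beside 3.6% of all genes. Clock, the activator, was at 25.2 CPM in SD 12 h and 28.04 CPM in SASD 12 h, against 34.5 CPM in SD 6 h, 29.7 CPM in SD 24 h, 29.4 CPM in SASD 6 h and 33.01 CPM in SASD 24 h, with a log2 ratio of -0.25 ± 0.13 (SE, 6 libraries). Its partner Arntl overlapped between the groups at 18.9 and 22.2 CPM at 12 h against 19.5 to 21.7 CPM in the other 4. Its log2 ratio of 0.015 ± 0.14 was between -0.055 and -0.0023 under 4 alternative settings and below 0 without the SASD 6 h, SASD 12 h or SASD 24 h library. Dbp, a clock-controlled transcription factor, stood at 8.39 CPM in SD 12 h and 10.6 CPM in SASD 12 h, against 8.11 CPM in SD 6 h, 6.89 CPM in SD 24 h, 7.90 CPM in SASD 6 h and 9.13 CPM in SASD 24 h. Its highest level was that of SASD 12 h, but SD 12 h lay under SASD 24 h (log2 ratio 0.25 ± 0.19).

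Per2, another Period gene, had 18.02 CPM in SD 12 h and 9.01 CPM in SASD 12 h, against 10.2 CPM in SD 6 h, 19.9 CPM in SD 24 h, 7.27 CPM in SASD 6 h and 8.43 CPM in SASD 24 h. SD 24 h was the highest library, and the log2 ratio of 0.24 ± 0.26 was -0.039 without the 6 h libraries. Per3, the remaining Period gene, was at 3.11 and 2.87 CPM at 12 h against 2.94 to 4.21 CPM in the other 4 (log2 ratio -0.32 ± 0.28). Among the Cryptochromes, Cry1 was at 30.6 and 27.02 CPM at 12 h against 24.5 to 32.6 CPM and Cry2 at 16.5 and 14.7 CPM at 12 h against 13.8 to 16.9 CPM in the other 4, overlapping in both cases. The REV-ERB genes Nr1d1 and Nr1d2, which repress Arntl, had log2 ratios of 0.24 ± 0.41 and 0.081 ± 0.14, and the sign of Nr1d1 turned without the 24 h libraries (-0.19). Bhlhe41, a repressor of the E-box, dipped at 9.43 and 11.97 CPM at 12 h against 9.62 to 16.7 CPM in the other 4, and its relative Bhlhe40 did not (log2 ratio -0.024 ± 0.18). Nfil3, a repressor of the Dbp family's targets, was at 29.1 CPM in SD 12 h and 8.60 CPM in SASD 12 h, against 11.7 CPM in SD 6 h, 33.9 CPM in SD 24 h, 12.7 CPM in SASD 6 h and 14.3 CPM in SASD 24 h. It was high in both later SD libraries and low in SASD 12 h. The circadian deubiquitinase Usp2 had the same order within SD and its lowest SASD level at 12 h (5.57 and 2.05 CPM at 12 h against 1.87 to 5.65 CPM in the other 4). The casein kinases Csnk1d and Csnk1e, Tef of the Dbp family and the activator Rora had log2 ratios of -0.018, -0.022, 0.052 and -0.055. The low-count gene Ciart had a log2 ratio of 0.21 ± 0.26.

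**Figure D2:**
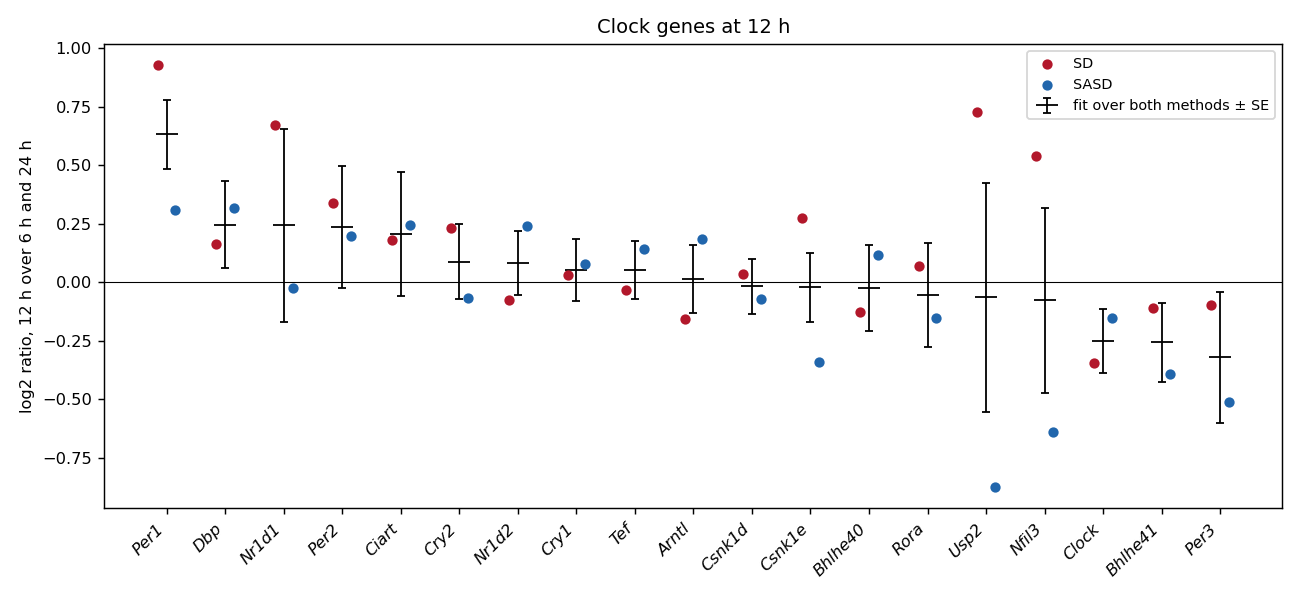
Log2 ratio of 12 h over the mean of 6 h and 24 h for 19 of the 21 clock genes tested, within SD (red), within SASD (blue) and in the fit over both methods (bars, with the SE), ordered by the fit. The fitted ratios of the genes shown run from 0.63 for Per1 to -0.32 for Per3, and for Usp2 (0.73 in SD and -0.88 in SASD) and Nfil3 (0.54 and -0.64) the methods lie far apart on both sides of 0.

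Red cell transcripts were lower at 12 h throughout, and of the 30 gene lists examined this was the only one whose members all dipped. All 20 genes of the erythroid list were tested and 20 dipped, against 9.15% of all genes, and their median log2 ratio was -0.69, with -0.61 within SD and -0.66 within SASD. At an unadjusted p under 0.05 there were 15 of them that were lower, beside 2.27% of all genes. By adjusted p, edgeR called 0 and DESeq2 called 3, beside 0% and 0.116% of all genes. Epb42, protein 4.2 of the red cell membrane (chr2:121017891-121037072, minus strand), stood at 24.4 CPM in SD 12 h and 28.96 CPM in SASD 12 h, against 50.1 CPM in SD 6 h, 45.3 CPM in SD 24 h, 46.4 CPM in SASD 6 h and 66.3 CPM in SASD 24 h. Ank1, the ankyrin that ties the membrane to its skeleton (chr8:22974844-23150497, plus strand), had 28.01 CPM in SD 12 h and 33.9 CPM in SASD 12 h, against 66.6 CPM in SD 6 h, 64.1 CPM in SD 24 h, 56.6 CPM in SASD 6 h and 103 CPM in SASD 24 h. In both genes each 12 h library lay under all of the other 4, as in 5.64% of all genes tested, and SASD 24 h was the highest, and the log2 ratios were -0.96 ± 0.16 and -1.23 ± 0.22 (SE, 6 libraries each).

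Car2, a carbonic anhydrase, was at 164 and 184 CPM in the SD and SASD libraries at 12 h, against 252 to 448 CPM in the other 4 (log2 ratio -1.002 ± 0.20), and Rhag, of the Rh complex, at 2.74 and 2.46 CPM at 12 h against 3.23 to 7.73 CPM in the other 4 (log2 ratio -1.15 ± 0.39). Neither gene overlapped between the groups, as in 5.64% of all genes tested with 12 h below. The globin genes differed less: Hba-a1, an alpha globin, had 15683 CPM in SD 12 h and 19798 CPM in SASD 12 h, against 23294 CPM in SD 6 h, 19486 CPM in SD 24 h, 23860.0 CPM in SASD 6 h and 32313 CPM in SASD 24 h. SASD 12 h was above SD 24 h, so the groups overlapped although the gene dipped within each method (log2 ratio -0.48 ± 0.27). The beta globin Hbb-bs had a log2 ratio of -0.37 ± 0.27. Reads shared with the near copies Hba-a2 and Hbb-bt make the single globin genes uncertain.

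The haemoglobin share of all counts was 4.20% in SD 12 h and 5.54% in SASD 12 h, against 6.51% in SD 6 h, 5.64% in SD 24 h, 6.07% in SASD 6 h and 6.96% in SASD 24 h. Both 12 h libraries were the lowest of their method and also of all 6. The log2 difference was -0.38, and an exact two-sided permutation test within methods over 9 arrangements gave p = 0.111, the smallest that it can give. In the libraries outside the comparison the share was 0.316% in SD 48 h, 0.275% in SASD 48 h, 3.57% in SASD 120 h and 0.727% in Con. The ordering at 12 h was therefore small beside the gap between Con with the 48 h libraries and the rest. The 95% exact binomial interval, which covers counting error only, was 4.19% to 4.21% in SD 12 h and 5.52% to 5.55% in SASD 12 h.

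Of the 12 promoters of erythroid list genes in RefSeq, 5 held the letters AGATAA, searched on both strands as a motif of erythroid GATA factors, against 11.2% of all 32851 promoters. That of Epb42 (chr2:121036828-121037127, minus strand) is shown with its match in capitals, read on the opposite strand.
Epb42 promoter: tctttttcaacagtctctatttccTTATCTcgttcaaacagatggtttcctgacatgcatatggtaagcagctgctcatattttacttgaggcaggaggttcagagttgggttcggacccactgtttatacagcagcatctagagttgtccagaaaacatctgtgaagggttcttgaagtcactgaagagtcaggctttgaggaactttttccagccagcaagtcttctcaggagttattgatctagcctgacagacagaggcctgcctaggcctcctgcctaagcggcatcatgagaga

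**Figure D3:**
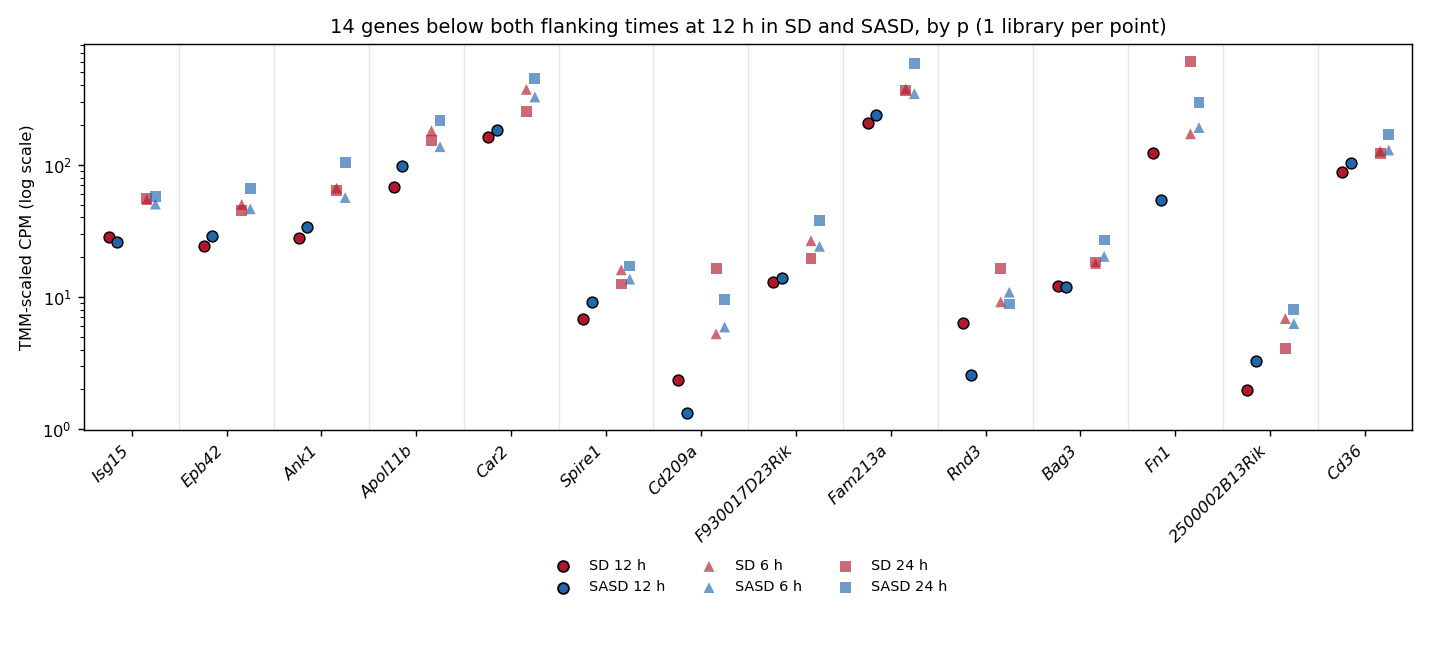
Levels of 14 of the 15 dipping genes of smallest p, in TMM-scaled CPM on a log axis, 1 point per library, with the 12 h libraries (outlined circles) left of the 6 h (triangles) and 24 h (squares) libraries and SD in red and SASD in blue. Each 12 h point lies below the 6 h and 24 h points of its own colour, with fitted log2 ratios from -2.33 for Cd209a to -0.53 for Cd36.

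Isg15 had the smallest p of the dipping genes. It encodes a ubiquitin-like protein that type I interferon induces (chr4:156199424-156200818, minus strand). Its levels were 28.4 CPM in SD 12 h and 25.99 CPM in SASD 12 h, against 54.5 CPM in SD 6 h, 55.7 CPM in SD 24 h, 50.5 CPM in SASD 6 h and 57.7 CPM in SASD 24 h. The 12 h libraries lay close together, well under the other 4, which also lay close together. Both 12 h levels lay below the other 4 in 5.64% of all genes tested. The log2 ratio was -1.01 ± 0.12 (SE, 6 libraries), with an edgeR adjusted p of 0.122 and a DESeq2 adjusted p of 6.73e-06. Under the 15 alternative edgeR settings the log2 ratio lay between -1.07 and -0.85 and the adjusted p between 8.34e-06 and 1. Rsad2 (viperin, an antiviral enzyme; chr12:26442746-26456452, minus strand) had 1160.2 CPM in SD 12 h and 1424 CPM in SASD 12 h, against 1945 CPM in SD 6 h, 1705 CPM in SD 24 h, 2052 CPM in SASD 6 h and 3093 CPM in SASD 24 h. It was lowest at 12 h in both methods, with a log2 ratio of -0.75 ± 0.21 (SE, 6 libraries).

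The promoters of Isg15 and Rsad2 are shown because their genes were lower together and hold the interferon-stimulated response element, searched as the letters GAAA, any 2 letters and GAAA, in capitals (GRCm38.p6, RefSeq; Isg15 at chr4:156200769-156201068, minus strand; Rsad2 at chr12:26456403-26456702, minus strand). In Isg15 the capitals cover 3 matches that overlap one another, and in Rsad2 the match is on the opposite strand. Neither overlapped another motif searched.
Isg15 promoter: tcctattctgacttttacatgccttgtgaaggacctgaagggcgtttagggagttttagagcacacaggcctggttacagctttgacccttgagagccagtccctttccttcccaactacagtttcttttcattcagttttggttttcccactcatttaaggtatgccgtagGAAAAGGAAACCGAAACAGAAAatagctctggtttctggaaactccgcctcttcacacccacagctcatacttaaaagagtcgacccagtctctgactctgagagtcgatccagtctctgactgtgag
Rsad2 promoter: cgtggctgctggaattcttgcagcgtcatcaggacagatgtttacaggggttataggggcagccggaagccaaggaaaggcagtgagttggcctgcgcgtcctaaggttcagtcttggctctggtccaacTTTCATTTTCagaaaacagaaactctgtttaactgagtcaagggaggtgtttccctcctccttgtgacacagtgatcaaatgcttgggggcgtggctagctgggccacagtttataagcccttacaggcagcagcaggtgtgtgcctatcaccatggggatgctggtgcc
The motif, searched on both strands, was in 3.44% of all 32851 promoters. It was in 14 of the 20 tested interferon list genes with a promoter in RefSeq, or 16 of their 25 promoters (64%). Of the promoters of all dipping genes 4.75% held it, against 3.20% of those of the genes tested.

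Of the 28 interferon-stimulated genes on the list, 26 were tested, 11 dipped and 0 peaked, against 9.15% and 12% of all genes. Their median log2 ratio was -0.23, with -0.15 within SD and -0.24 within SASD, and 5 were lower at an unadjusted p under 0.05, as were 2.27% of all genes. In the fit 24 of the 26 were lower at 12 h and 2 were higher. With one sign in both methods, 19 were lower and 0 higher, beside 23.5% and 27.4% of all genes. Oas1a and Oas3, which make the activator of the RNA-degrading enzyme RNase L, had log2 ratios of -0.76 ± 0.25 and -0.51 ± 0.16. Irf7, which amplifies interferon production, was at 91.3 and 63.1 CPM in the SD and SASD libraries at 12 h, against 86.5 to 124 CPM in the other 4 (log2 ratio -0.41 ± 0.16), and SD 12 h lay above SASD 24 h, so the groups overlapped. Xaf1, a pro-apoptotic interferon target, had a log2 ratio of -0.38 ± 0.17. On a scaling over all 10 libraries, the summed level of the list was 3109 CPM in SD 12 h and 2960.2 CPM in SASD 12 h, against 3917 to 5181 CPM in the other 4 libraries. Rsad2 alone makes up a large part of this sum, which therefore does not show a drop across the list. The list's median log2 ratio of 12 h over 6 h was -0.079 in SD and -0.42 in SASD. That of 12 h over 24 h was -0.23 in SD and -0.15 in SASD. The haemoglobin share ran the same way, lowest at 12 h, and its part in these values was not tested.

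Genes of classical monocytes, the Ly6C-high cells that enter inflamed tissue, mostly had lower levels at 12 h. Of 14 tested, 8 dipped and 0 peaked, against 9.15% and 12% of all genes. The median log2 ratio was -0.49, and 7 were lower at an unadjusted p under 0.05, as were 2.27% of all genes. Ccr2, the chemokine receptor that lets these cells leave bone marrow (chr9:124101950-124113557, plus strand), stood at 124 CPM in SD 12 h and 69.2 CPM in SASD 12 h, against 158 CPM in SD 6 h, 493 CPM in SD 24 h, 199.9 CPM in SASD 6 h and 212 CPM in SASD 24 h. Vcan, a proteoglycan of classical monocytes (chr13:89655312-89742509, minus strand), had 11.04 CPM in SD 12 h and 2.25 CPM in SASD 12 h, against 13.9 CPM in SD 6 h, 87.8 CPM in SD 24 h, 13.02 CPM in SASD 6 h and 31.3 CPM in SASD 24 h. Both genes were highest in SD 24 h and lowest in SASD 12 h, and SD 12 h lay much nearer to SD 6 h than to SD 24 h. Their log2 ratios were -1.48 ± 0.38 and -2.57 ± 0.76 (SE, 6 libraries each), and that of Vcan was -1.69 without SD 24 h.

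Fn1, the fibronectin gene and also a marker of these cells, was at 122 CPM in SD 12 h and 54.03 CPM in SASD 12 h, against 172 CPM in SD 6 h, 605 CPM in SD 24 h, 191 CPM in SASD 6 h and 296 CPM in SASD 24 h. Its log2 ratio was -1.91 ± 0.46. Lyz2, the lysozyme of myeloid cells, was at 1178 and 899 CPM at 12 h against 1245 to 2910.3 CPM in the other 4 (log2 ratio -0.83 ± 0.30). Chil3, a chitinase-like protein of monocytes and neutrophil precursors, was at 70.2 and 45.9 CPM at 12 h against 66.3 to 634 CPM in the other 4, of which the 24 h libraries stood highest, and SD 12 h lay above SASD 6 h, so the groups overlapped. Its log2 ratio was -2.04 ± 0.81, but -1.03 without SD 24 h and -0.33 without both 24 h libraries. Over the classical monocyte list the median log2 ratio of 12 h over 6 h was -0.14 in SD and -0.51 in SASD, and that of 12 h over 24 h was -0.93 in SD and -0.62 in SASD. Without the 24 h libraries the list median in the fit was -0.31. On a scaling over all 10 libraries, the summed level of the list was 3961.2 CPM in SD 12 h, against 3925.5 CPM in SD 6 h and 7940.7 CPM in SD 24 h. The SD 12 h sum thus did not lie below SD 6 h. In SASD the sum was 3044.6 CPM at 12 h, below 4412.6 CPM at 6 h and 5082.6 CPM at 24 h. Nonclassical monocyte genes had a median of 0.03, with 1 peaking (Cd300e, 0.32) and 2 dipping of 14, beside 12% and 9.15% of all genes. The dipping members were Cx3cr1, the fractalkine receptor (log2 ratio -0.79 ± 0.28), and Cd36, a scavenger receptor that red cell precursors, platelets and monocytes share (-0.53 ± 0.14).

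Among dendritic and plasma cell genes, 14 were tested, 3 dipped and 1 peaked, beside 9.15% and 12% of all genes, with a median of -0.14. Cd209a, a lectin of the DC-SIGN family on dendritic cells and some monocytes, had 2.36 CPM in SD 12 h and 1.33 CPM in SASD 12 h, against 5.26 CPM in SD 6 h, 16.5 CPM in SD 24 h, 5.92 CPM in SASD 6 h and 9.55 CPM in SASD 24 h. Both 12 h libraries were below the others, at low counts, as in 5.64% of all genes tested. The log2 ratio was -2.33 ± 0.52 with a DESeq2 adjusted p of 0.00276. Siglech, a marker of plasmacytoid dendritic cells, the main interferon producers of blood, was at 2.83 and 2.25 CPM at 12 h against 3.12 to 7.69 CPM in the other 4 (log2 ratio -1.04 ± 0.40). Xcr1 of cross-presenting dendritic cells had a log2 ratio of -0.25 ± 0.21. Jchain, which links antibody chains in plasma cells, was the member that peaked, with 16.04 and 18.1 CPM in the SD and SASD libraries at 12 h, against 5.48 to 14.5 CPM in the other 4 (log2 ratio 0.79 ± 0.34).

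Neutrophil granule and precursor genes had a median log2 ratio of -0.64 over 8 tested of 16 listed, with 3 dipping, beside 9.15% of all genes. The named members were Ltf, lactoferrin (-0.97 ± 0.29), and Ngp (-0.80 ± 0.24). Without the 24 h libraries the median was -0.0052. Mature neutrophil genes had a median of -0.17, made of 0.23 within SD and -0.50 within SASD. Of 24, 0 peaked or dipped, beside 21.2% of all genes. Csf3r, the G-CSF receptor, was at 1791 CPM in SD 12 h and 684 CPM in SASD 12 h, against 924 CPM in SD 6 h, 1612 CPM in SD 24 h, 935 CPM in SASD 6 h and 893 CPM in SASD 24 h. SD 12 h was the highest library and SASD 12 h the lowest. The calprotectin subunit gene S100a9 was highest in SD 24 h and lowest in SASD 12 h, with 1229 and 374 CPM at 12 h against 384 to 1876 CPM in the other 4.

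The remaining named dipping genes span several functions. Apol11b, of the apolipoprotein L family, stood at 67.7 and 97.1 CPM in the SD and SASD libraries at 12 h, against 137 to 217 CPM in the other 4 (log2 ratio -1.08 ± 0.21). Fam213a, a peroxiredoxin-like gene, was at 208 and 239 CPM in the SD and SASD libraries at 12 h, against 346 to 587 CPM in the other 4 (log2 ratio -0.90 ± 0.21). Bag3, a partner of heat shock protein 70, was at 12.1 and 11.97 CPM in the SD and SASD libraries at 12 h, against 17.9 to 26.97 CPM in the other 4 (log2 ratio -0.78 ± 0.18), Spire1, an actin nucleator, at 6.79 and 9.11 CPM in the SD and SASD libraries at 12 h, against 12.5 to 17.1 CPM in the other 4 (log2 ratio -0.91 ± 0.20), and Rnd3, a small GTPase, at 6.32 and 2.56 CPM in the SD and SASD libraries at 12 h, against 8.85 to 16.5 CPM in the other 4 (log2 ratio -1.41 ± 0.33). In these 5, chosen by p among dipping genes, both 12 h libraries lay under the other 4, as in 5.64% of all genes tested. F930017D23Rik and 2500002B13Rik, which have no assigned name, had log2 ratios of -0.99 ± 0.23 and -1.27 ± 0.31.

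Cytosolic ribosomal protein genes had the highest share of peaking members of the 30 lists. Of 77 tested, 69 peaked and 0 dipped, against 12% and 9.15% of all genes, and 76 had a positive 12 h effect in both methods. The median log2 ratio was 0.29, with 0.15 within SD and 0.43 within SASD. Of the 77, 13 were higher at an unadjusted p under 0.05, as were 1.32% of all genes. Rpl12 was at 742 CPM in SD 12 h and 778 CPM in SASD 12 h, against 652 CPM in SD 6 h, 542 CPM in SD 24 h, 646 CPM in SASD 6 h and 488 CPM in SASD 24 h. Rpl8 and Rpl13a stood at 989 and 962 CPM at 12 h against 673 to 807 CPM and at 1813 and 1756 CPM at 12 h against 1259.6 to 1551 CPM in the other 4. In all 3 genes the 24 h libraries were lower than those of 6 h within their method, and the log2 ratios were 0.38 ± 0.16, 0.35 ± 0.14 and 0.34 ± 0.16. Fau, a ribosomal protein made as a ubiquitin-like fusion, and Rpl4 had log2 ratios of 0.32 ± 0.15 and 0.13 ± 0.15.

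T cell genes were higher in the fit for 20 of 20, with 12 peaking and 0 dipping (12% and 9.15% of all genes) and a median log2 ratio of 0.23 (0.12 within SD and 0.35 within SASD). Of these, 3 were higher at an unadjusted p under 0.05, as were 1.32% of all genes. Cd3d of the T cell receptor complex was at 76.3 and 79.9 CPM in the SD and SASD libraries at 12 h, against 47.2 to 71.6 CPM in the other 4 (log2 ratio 0.37 ± 0.15), and the receptor's adaptor Lat at 148 and 146 CPM in the SD and SASD libraries at 12 h, against 86.3 to 122 CPM in the other 4 (log2 ratio 0.39 ± 0.15). Cd3e, Cd6 and the transcription factor Tcf7 had log2 ratios of 0.25 ± 0.12, 0.27 ± 0.12 and 0.19 ± 0.14, and Tcf7 did not peak. B cell genes ran the other way, with a median of -0.11, 0 peaking and 4 dipping of 18. The dipping ones were Cr2, a complement receptor (-0.34 ± 0.14), Ms4a1, the CD20 gene (-0.24 ± 0.14), Ralgps2 (-0.23 ± 0.14) and Fcer2a, the low-affinity IgE receptor (-0.18 ± 0.14), while Ighm, the IgM heavy chain, had -0.11 ± 0.17.

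Genes of lymphocyte recirculation had a median of -0.05 in the fit but of 0.03 within SD and 0.02 within SASD, with 4 of 13 peaking and 0 dipping. Beside Cxcr4 the peaking ones were Ccr7, the receptor for entry into lymph nodes (0.22 ± 0.13), Klf2, which sustains the exit receptor (0.19 ± 0.18), and S1pr4 (0.22 ± 0.13). Cytotoxic lymphocyte genes had a median of 0.02, with Nkg7 (0.22) and Ccl5 (0.16) peaking and Eomes (-0.15) dipping. Platelet genes had a median of 0.13, made of 0.44 within SD and -0.19 within SASD, and of 16 tested only Pf4, platelet factor 4, peaked, with 570.3 and 643 CPM in the SD and SASD libraries at 12 h, against 380.1 to 569 CPM in the other 4. SASD 24 h was close to SD 12 h for Pf4, and the log2 ratio was 0.38 ± 0.14. The counts in the recirculation, cytotoxic and platelet lists stand beside 12% peaking and 9.15% dipping over all genes.

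**Figure D4:**
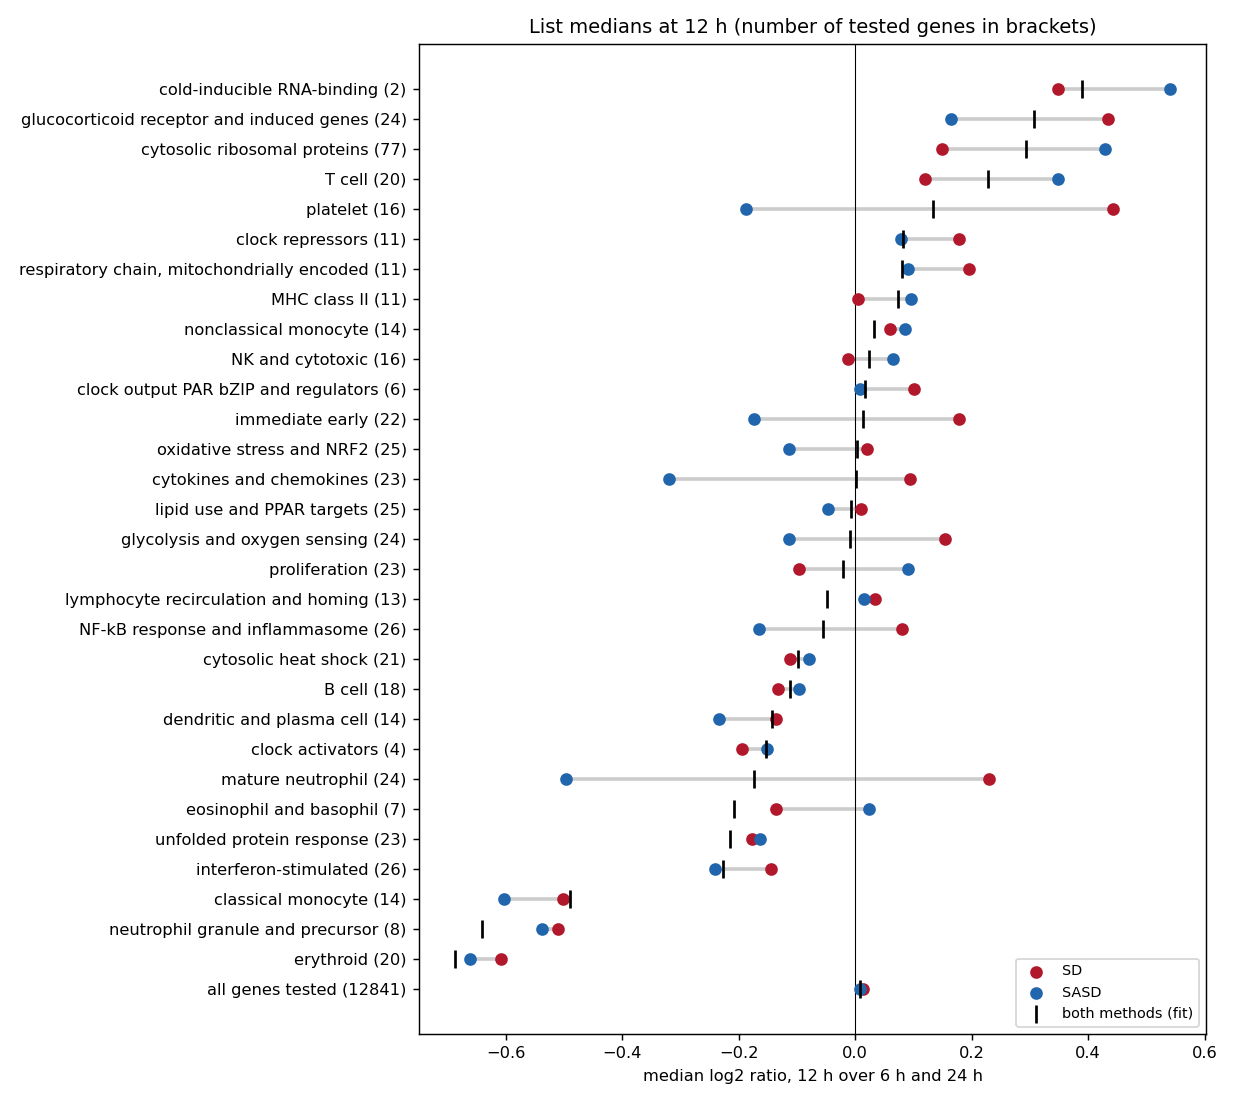
Median log2 ratio of 12 h over 6 h and 24 h for each gene list, within SD (red), within SASD (blue) and in the fit over both (bars), with the number of tested genes in brackets and all genes tested at 0.01 in each method. The erythroid list lies lowest in the fit at -0.69 and has both methods below 0, ribosomal proteins and T cells have both above 0, and mature neutrophils (0.23 in SD and -0.50 in SASD) and platelets (0.44 and -0.19) lie on both sides.

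The cold-inducible gene Rbm3, which follows body temperature in clock studies, peaked at 221 CPM in SD 12 h and 204 CPM in SASD 12 h, against 173 CPM in SD 6 h, 160.2 CPM in SD 24 h, 167 CPM in SASD 6 h and 104 CPM in SASD 24 h. The groups did not overlap, as in 7.17% of all genes tested with 12 h above. SASD 24 h was the lowest library, and the log2 ratio was 0.49 ± 0.18. Its relative Cirbp had a log2 ratio of 0.28 ± 0.31, which was -0.11 without the 24 h libraries. Cytosolic heat shock genes had a median of -0.10, with 3 of 21 dipping, against 9.15% of all genes. The 3 were Dnajb4 (-0.31) and Hspa4 (-0.15) beside Bag3.

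Of 23 genes of the unfolded protein response, 8 dipped and 3 peaked, against 9.15% and 12% of all genes, and the median log2 ratio was -0.22, or -0.078 without the 24 h libraries. Calr, a chaperone of the endoplasmic reticulum, was at 255 and 259.9 CPM in the SD and SASD libraries at 12 h, against 291 to 395 CPM in the other 4 (log2 ratio -0.42 ± 0.16). Hspa5 (BiP) and Hsp90b1, of the same compartment, had log2 ratios of -0.38 ± 0.19 and -0.38 ± 0.19. Asns, asparagine synthetase, dipped (-1.14 ± 0.50) and Trib3 peaked (0.33 ± 0.38), both at low counts.

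In the oxidative stress list 4 of 25 dipped and 3 peaked, with a median of 0.0037. These counts and those of the proliferation and lipid lists stand beside 9.15% dipping and 12% peaking over all genes. The dipping members were the peroxidases Gpx1 (-0.45) and Prdx2 (-0.47), both abundant in red cells, together with Gclm of glutathione synthesis (-0.41) and Nqo1 (-0.54). Proliferation genes had a median of -0.02, with Nusap1 (-0.63) and Ccna2 (-0.46) dipping, and Tyms (0.66) and Pcna (0.24) among the 3 peaking of 23. Lipid genes had a median of -0.01, with 5 of 25 dipping, among them Sqle of sterol synthesis (-0.44), and 3 peaking, among them the cholesterol exporter Abcg1 (0.21).

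Fitted medians of the NF-kB, cytokine and immediate early lists lay near that of all genes, with SD above 0 and SASD below 0. For NF-kB genes the median was 0.08 within SD and -0.17 within SASD. NF-kB genes had a median of -0.05, with 2 of 26 peaking, the feedback inhibitor Tnfaip3 (0.25) and Nfkbib (0.30), and 2 dipping, Nfkb2 (-0.27) and Nfkbie (-0.21). Cytokine and chemokine genes had a median of 0.0020, 0.09 within SD and -0.32 within SASD. Of 23 tested, 2 peaked, among them the macrophage growth factor Csf1 (0.35), and 2 dipped, the chemokines Ccl9 (-0.94) and Cxcl16 (-0.68). These counts and those of the NF-kB list stand beside 12% peaking and 9.15% dipping over all genes. The medians were 0.01 for 22 immediate early genes (0.18 within SD and -0.17 within SASD) and -0.01 for 24 glycolysis and oxygen sensing genes (0.15 within SD and -0.11 within SASD). They were 0.07 for 11 MHC class II genes, 0.08 for 11 mitochondrially encoded genes and -0.21 for 7 eosinophil and basophil genes.

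The difference of the 12 h effect between the methods was tested directly. No gene passed edgeR's quasi-likelihood test of the interaction (0%), and 209 had an unadjusted p under 0.05 (1.63%), of which 1 was among the 15 peaking and 0 among the 15 dipping genes of smallest p. With 2 residual degrees of freedom this does not show that the methods acted alike.

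**Figure D5:**
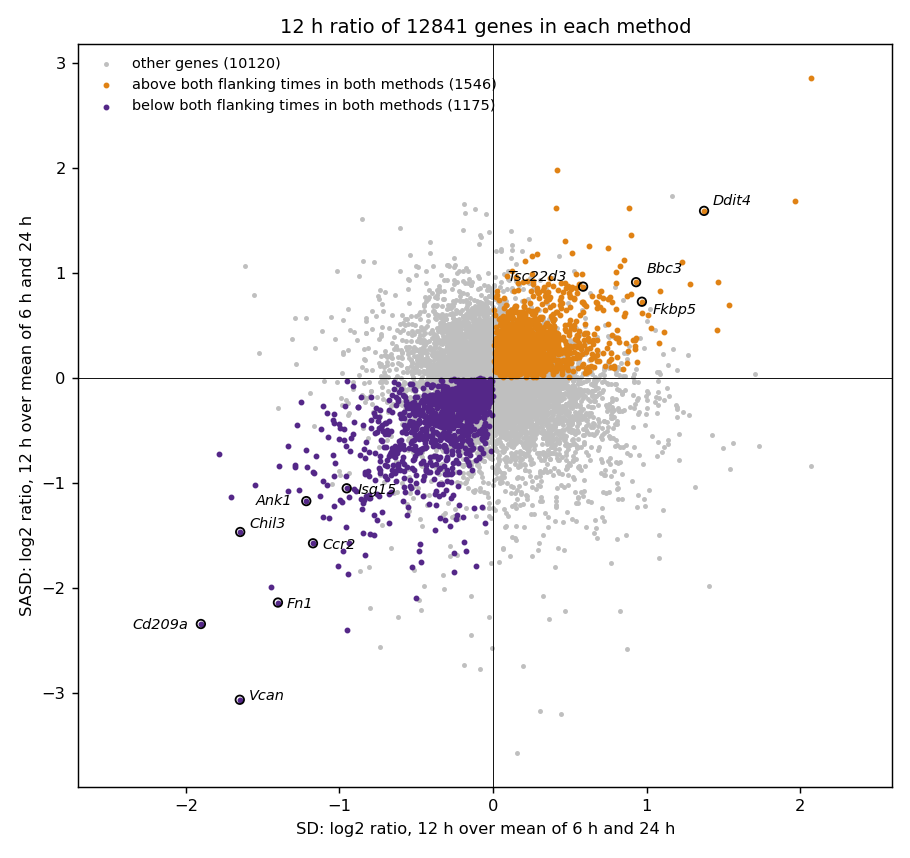
Log2 ratio of 12 h over the mean of 6 h and 24 h for each gene tested, within SD on the horizontal axis and within SASD on the vertical axis, with peaking genes in orange, dipping genes in purple, the others in grey and 11 genes circled and labelled. Of the labelled genes Ddit4 lies farthest to the upper right (1.37 in SD, 1.59 in SASD), and Cd209a (-1.90, -2.34) and Vcan (-1.65, -3.06) farthest to the lower left.

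The libraries outside the comparison give the wider setting. They are single libraries, and Con and both 48 h libraries differ from the rest in haemoglobin share, so their levels were not tested. Both 12 h levels lay above SASD 120 h for 15 of the 15 named peaking genes, above SASD 48 h for 15, above SD 48 h for 13 and above Con for 13. The same held for 56.9%, 65.6%, 53.1% and 62.9% of all 1546 peaking genes, and for 36.4%, 39.7%, 39.2% and 41.1% of all genes tested. On a scaling over all 10 libraries, Ddit4 stood at 166 and 154 CPM in SD 12 h and SASD 12 h, 124 CPM in SD 48 h, 36.7 CPM in SASD 48 h, 31.2 CPM in SASD 120 h and 79.7 CPM in Con. Tsc22d3 stood at 1035 and 943 CPM in SD 12 h and SASD 12 h, 943 CPM in SD 48 h, 368 CPM in SASD 48 h, 427 CPM in SASD 120 h and 651 CPM in Con, and Fkbp5 at 148 and 121 CPM in SD 12 h and SASD 12 h, 119 CPM in SD 48 h, 40.2 CPM in SASD 48 h, 34.9 CPM in SASD 120 h and 77.5 CPM in Con. In these 3 genes SD 48 h was the nearest to the 12 h libraries, and for Tsc22d3 and Fkbp5 it lay close under SASD 12 h.

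Most of the 15 dipping genes of smallest p did not stand below the libraries outside the comparison. Both 12 h levels lay below SASD 120 h for 4 of the 15, below SASD 48 h for 3, below SD 48 h for 3 and below Con for 4, against 61.3%, 61.4%, 50.5% and 56.6% of all 1175 dipping genes and 40.4%, 41.3%, 40.5% and 38.3% of all genes tested. Isg15 stood at 30.2 and 27.6 CPM in SD 12 h and SASD 12 h, 12.1 CPM in SD 48 h, 10.2 CPM in SASD 48 h, 24.7 CPM in SASD 120 h and 7.57 CPM in Con. Epb42 stood at 26.01 and 30.8 CPM in SD 12 h and SASD 12 h, 4.08 CPM in SD 48 h, 1.23 CPM in SASD 48 h, 12.6 CPM in SASD 120 h and 3.61 CPM in Con, and Fn1 at 129.7 and 57.4 CPM in SD 12 h and SASD 12 h, 489 CPM in SD 48 h, 588 CPM in SASD 48 h, 331 CPM in SASD 120 h and 187 CPM in Con. The low 12 h level of Isg15 and Epb42 was thus low beside 6 h and 24 h alone, whereas Fn1 was below all of the other libraries.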

How the data were processed

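Blood RNA of C57/BL6J mice was sequenced in 10 libraries, each pooled from 3 mice of a group. Reads were trimmed with Trimmomatic 0.39 and aligned to mm10 with STAR 2.7.9a, per the submitters' processing notes. The deposited values were raw counts of read pairs over exons for 32285 genes, made by the authors with featureCounts 2.0.3 and no strand option, per the file headers. Overlapping and antisense genes were therefore uncertain, as were near-identical copies. Symbols (32158 genes) were read from a separate list of gene names, and positions from GENCODE mouse release 21. Either may differ from the authors' annotation.

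From these counts, TMM factors and the quasi-likelihood test of edgeR 4.0.16 (R 4.3.3) were computed on the 6 libraries at 6, 12 and 24 h, with method as a block, a minimum mean count of 10 per gene, Benjamini-Hochberg adjustment at 0.05 and 3 residual degrees of freedom. The interaction of method and time had 2. The scripts were tested on simulated data. DESeq2 1.42.0, limma-voom (limma 3.58.1), another scaling, count minimums, flanking times and leaving out each library were the alternatives. The log2 ratio within a method used a prior count of 2. Library totals of the comparison ran from 7825120 to 11141786. The TMM factor was 0.911 for SASD 24 h and 1.01 to 1.03 for the other 5.

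The members and the 30 gene lists (612 entries, 611 matched) were chosen with earlier results of these data known. As fewer than 10 genes passed the test in a direction, the rule named the 15 genes of smallest p among those that peaked, and the 15 among those that dipped, with a mean count of at least 50, every clock gene tested, and up to 4 peaking or dipping and 2 abundant genes of each list. Of the 160 genes it named, 115 are given here, and the others are not reported here.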

Additional observations from a re-analysis of the deposited data

How the results depend on the processing

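Each group was 1 pooled library, so no setting could separate a time from its library, and weak effects in genes of low count were not detectable at this depth. Larger differences in genes of higher count, such as that of Ddit4 (log2 ratio 1.47, edgeR adjusted p 0.122), were not called in the main fit either. No paired analysis was possible because no group had a second replicate to pair by number, and the block used was the method. The number of genes called by edgeR was 0 under the other edgeR settings run, the fit without the method block included, and 0 by limma-voom. It was 92 with no count minimum (16 higher, 76 lower, 78 of them peaking or dipping), 97 without the 6 h libraries (14 higher, 83 lower, 50 of them peaking or dipping), 1 without the 24 h libraries (Ddit4) and 14 by DESeq2. Leaving out 1 library at a time gave 0 to 75. The cause was not tested. Peaking or dipping genes numbered 56 with a gap of at least 0.5 on the log2 scale (10 higher, 46 lower), 2650 with DESeq2's size factors (1309 higher, 1341 lower) and 2113 with a mean count of at least 50. The median log2 ratio over all genes stayed between -0.018 and 0.02 in every fit. Without the 6 h libraries the list medians were -0.026 for clock repressors and -0.31 for heat shock. Without the 24 h libraries they were 0.027 for recirculation, -0.0052 for granule genes, -0.078 for the unfolded protein response, -0.18 for proliferation and -0.081 for lipid genes. Leaving out 1 library at a time gave medians of -0.0048 to 0.082 for clock output genes, -0.078 to 0.017 for recirculation, -0.83 to 0.016 for granule genes, -0.29 to -0.11 for the unfolded protein response, -0.42 to 0.068 for cytokines and -0.13 to -0.0047 for lipid genes, and a haemoglobin log2 difference of -0.53 to -0.23. The sign turned for Nr1d1 (-0.19), Csnk1d (0.046), Nfil3 (0.44), Usp2 (0.45), Rora (0.059), Tef (-0.0010), Nr3c1 (0.041), S100a9 (0.33) and Cirbp (-0.11) without the 24 h libraries. It turned for Cry1 (-0.039), Arntl (-0.013), Per2 (-0.039) and Csf3r (-0.12) without the 6 h libraries, and for Arntl (-0.055), Bhlhe40 (0.028), Usp2 (0.015), Rora (0.11) and Csnk1e (0.024) with SASD 120 h added. It also turned for Arntl (-0.0023) with DESeq2's size factors in edgeR, Arntl (-0.0025) by DESeq2, Nfil3 (0.049) without the method block, Nfil3 (0.11) and Usp2 (0.044) by limma-voom and Usp2 (0.0091) with a level for each time. With 1 library left out, the log2 ratios whose sign turned ran over Arntl -0.18 to 0.18, Nr1d1 -0.14 to 0.60, Csnk1d -0.086 to 0.037, Bhlhe40 -0.16 to 0.088, Nfil3 -0.66 to 0.33, Usp2 -0.94 to 0.55, Nr1d2 -0.10 to 0.23, Rora -0.19 to 0.11, Csnk1e -0.35 to 0.25, Cry2 -0.081 to 0.22, Tef -0.049 to 0.13, Nr3c1 -0.17 to 0.024, Csf3r -0.43 to 0.48 and S100a9 -0.36 to 0.32.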

Other observations

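Of the 12 genes that peaked with a fitted change of 2-fold or more, 11 were in no list, and all of these had a mean count under 50. The genes given here were chosen after their values were seen, as those of highest mean count outside the lists and the 30 genes of smallest p. Ston1, a gene of the stonin family of endocytic adaptors, stood at 8.58 CPM in SD 12 h and 7.98 CPM in SASD 12 h, against 2.94 CPM in SD 6 h, 1.41 CPM in SD 24 h, 3.50 CPM in SASD 6 h and 1.55 CPM in SASD 24 h. Its log2 ratio was 1.79 ± 0.36 (SE, 6 libraries), and it was among the genes called by DESeq2 (adjusted p 0.0497) but not by edgeR (adjusted p 0.958). Trnp1, a nuclear protein known from neural progenitors, had 6.04 and 7.16 CPM in the SD and SASD libraries at 12 h, against 0.140 to 2.87 CPM in the other 4. Fscn1, the actin-bundling protein fascin of mature dendritic cells, had 4.53 and 4.30 CPM, against 1.26 to 2.78 CPM.

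Of the 74 genes that dipped with 2-fold or more, 59 were in no list and not among the 30. C3, the central complement component, was at 88.8 CPM in SD 12 h and 45.7 CPM in SASD 12 h, against 95.8 CPM in SD 6 h, 249.7 CPM in SD 24 h, 101 CPM in SASD 6 h and 164 CPM in SASD 24 h. It was highest in SD 24 h and lowest in SASD 12 h, the order also seen for Ccr2 and Vcan. Tifab, an inhibitor of TRAF6 signalling, Arhgef37, Pid1, Abca9 and Ppfia4 had their highest level in SD 24 h and their lowest in SASD 12 h as well, with log2 ratios of -1.06, -1.28, -1.12, -1.13 and -1.06.

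The methods could also go opposite ways. At 12 h 1223 genes (9.52%) lay above both neighbouring times in SD and below both in SASD, and 1311 (10.2%) lay below both in SD and above both in SASD, against 2721 with one sign. None passed the edgeR test of the interaction, where all 10 genes of smallest p, 5 in each direction, had an adjusted p of 0.999. Mir142hg, the host transcript of a microRNA of blood cells, had 164 CPM in SD 12 h against 131 CPM in SD 6 h and 129 CPM in SD 24 h, and 121 CPM in SASD 12 h against 189 CPM in SASD 6 h and 210.0 CPM in SASD 24 h. Snrpe, a splicing protein gene, had 16.8 CPM in SD 12 h against 23.1 CPM in SD 6 h and 22.7 CPM in SD 24 h, and 23.03 CPM in SASD 12 h against 16.3 CPM in SASD 6 h and 10.96 CPM in SASD 24 h.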
